A study of Mus musculus with 15 samples.

Results

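Liver-only p53 regions away from gene ends were defined as regions of the authors' liver list that overlapped no region of the spleen or thymus list by 1 bp or more, and whose midpoint lay more than 1 kb from both ends of every annotated gene. The rule found 240 regions among the 3872 of the liver list and the 4137 distinct regions of all 3 lists. They were 11.8% of the 2028 liver regions away from gene ends, while 32.4% of the whole liver list (1255 of 3872) overlapped neither other list. The data come from chromatin immunoprecipitation sequencing (ChIP-seq) against p53 in 3 mouse organs (spleen, thymus and liver; labelled WT), with 15 libraries, 5 per organ. In each organ 2 libraries came from untreated mice, 2 from mice irradiated with X-rays (2 Gy, organs collected at 3 h), and 1 was input chromatin. All groups shared the wild-type genotype, and the labels used here state no age. The authors deposited 1 region list per organ, and the labels attach each list to all 5 libraries of its organ, so no region has a value per library and no comparison between organs or treatments has a replicate error. The names of the lists contain the words irrad and IgG, so which libraries made the regions is not known. Read depth is unknown. In whole organs, p53 bound in more cells and p53 bound more strongly per cell cannot be told apart.

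p53 is a transcription factor that DNA damage stabilises, and it activates genes of cell cycle arrest, apoptosis, DNA repair and metabolism. It binds paired copies of a short palindromic motif, both close to transcription starts and far from them in introns and between genes, where bound sites can act as enhancers. Liver tolerates radiation far better than the lymphoid organs, whose cells die readily through p53. A gene can also have several starts, and a start downstream of the outermost one lies inside the gene's annotated span.

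Not all of the 240 regions were distal. Of the 231 on chromosomes with annotated starts in the RefSeq table used here (GRCm38.p6, the assembly that mm10 names), 82 had their midpoint within 500 bp of such a start, most often a start inside the gene. The regions are therefore described by their rule, and those 82 are called start-site regions below. A start inside the gene, or internal start, means one within the gene's annotated span. Whether such a gene has another annotated start was not examined. The other 158 were 90 inside coding genes and 68 outside them; 9 of the 158 had no start table for their chromosome.

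The stretches of 6 start-site regions that precede the start are shown first, because they hold the bases under the authors' signal. They are examples from higher-scoring regions and from genes of the lists used below, each with at least 30 such bases. How often a motif lay in the region itself was not counted. The stretches were taken from RefSeq start windows, read 5′ to 3′ on the strand of the gene. Capitals mark matches to the motifs described below: CCAAT box in Zfp672, GC box in Cmtr2, ETS core in Egf, E-box in Nudt9, and both a p53 half-site and, on the opposite strand, a CCAAT box in Tasor2. The stretch of Fancc, a gene of DNA crosslink repair, held no match.
Zfp672: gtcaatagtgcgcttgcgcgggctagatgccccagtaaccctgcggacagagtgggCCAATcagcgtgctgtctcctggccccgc
Cmtr2: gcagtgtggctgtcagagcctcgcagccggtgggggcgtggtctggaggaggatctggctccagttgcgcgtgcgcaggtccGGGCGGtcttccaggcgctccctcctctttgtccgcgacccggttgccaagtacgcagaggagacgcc
Egf: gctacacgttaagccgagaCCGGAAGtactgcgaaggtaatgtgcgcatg
Nudt9: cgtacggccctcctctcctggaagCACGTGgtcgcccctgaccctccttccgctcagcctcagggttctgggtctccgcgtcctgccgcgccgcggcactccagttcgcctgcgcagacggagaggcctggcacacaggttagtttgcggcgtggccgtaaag
Tasor2: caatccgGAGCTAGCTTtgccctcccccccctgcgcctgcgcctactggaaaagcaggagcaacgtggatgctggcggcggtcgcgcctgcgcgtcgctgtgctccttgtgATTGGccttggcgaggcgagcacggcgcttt
Fancc: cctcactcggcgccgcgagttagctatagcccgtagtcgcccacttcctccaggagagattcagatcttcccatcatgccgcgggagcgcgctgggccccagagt
Their positions in mm10 are chr11:58323366-58323450 (minus strand) for Zfp672, chr8:110217801-110217950 (plus) for Cmtr2, chr3:129725101-129725150 (minus) for Egf, chr5:104046701-104046863 (plus) for Nudt9, chr13:3611109-3611250 (minus) for Tasor2 and chr13:63431746-63431850 (minus) for Fancc.

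Start-site regions made up 35.5% of the placed liver-only regions (82 of 231, exact Clopper-Pearson 95% interval 29.3 to 42.0, counting error only). The share was 15.0% in liver regions away from gene ends that 1 lymphoid list also held (33 of 220, 10.6 to 20.4) and 1.12% in those of all 3 lists (17 of 1516, 0.655 to 1.79). Over all liver regions away from gene ends it was 6.71%. The share was thus highest in liver-only regions, lower in regions shared with 1 other organ and lowest in regions of all 3 lists. The intervals count regions and hold no spread between mice or libraries. Every liver region more than 1 kb from a gene end was held to the same rule on position. The classes differ in whether a region reached the other lists, which depends on the authors' threshold, and no test across regions was run.

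**Figure D1:**
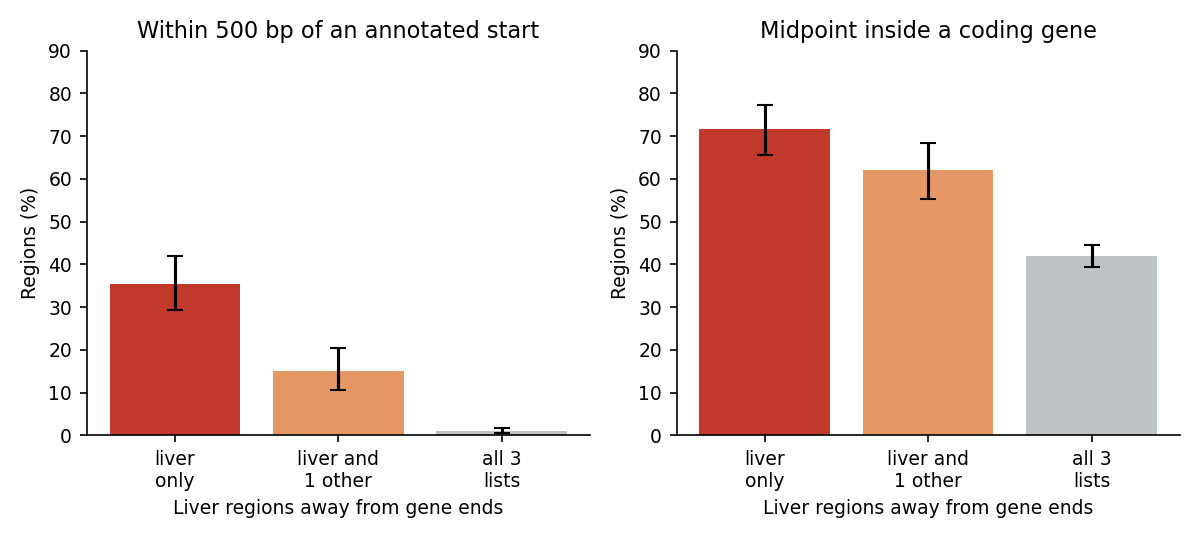
Share of liver regions away from gene ends whose midpoint lay within 500 bp of an annotated start (left) and inside a coding gene (right), by how many organ lists held them. Bars are percentages of regions with exact 95% intervals; the share at starts runs from 35.5% in liver-only regions to 1.12% in regions of all 3 lists.

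The start-site regions lay tightly around their starts. Their median distance from the start was 63 bp, 58 of 82 lay within 100 bp, and 43 covered the start base itself. Midpoints were upstream in 48 cases and at or downstream of the start in 34, with a median offset of -23 bp (quartiles -67.8 and 55.3). For 81 of 82 the start belonged to the coding gene that contained the region, and the remaining start belonged to Gm36470, a noncoding gene beginning inside Cdk6. The start lay a median of 3689 bp from the upstream end of its gene's annotated span, from 923 bp in Sgf29 to 136109 bp in Zfp800. For 14 starts this distance was more than 10 kb. Adiponectin receptor gene Adipor2 (28965 bp), the cohesin subunit gene Stag1 (45739 bp), the Notch effector gene Rbpj (34707 bp) and the chromatin reader gene Cdyl (81644 bp) were among these 14.

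**Figure D2:**
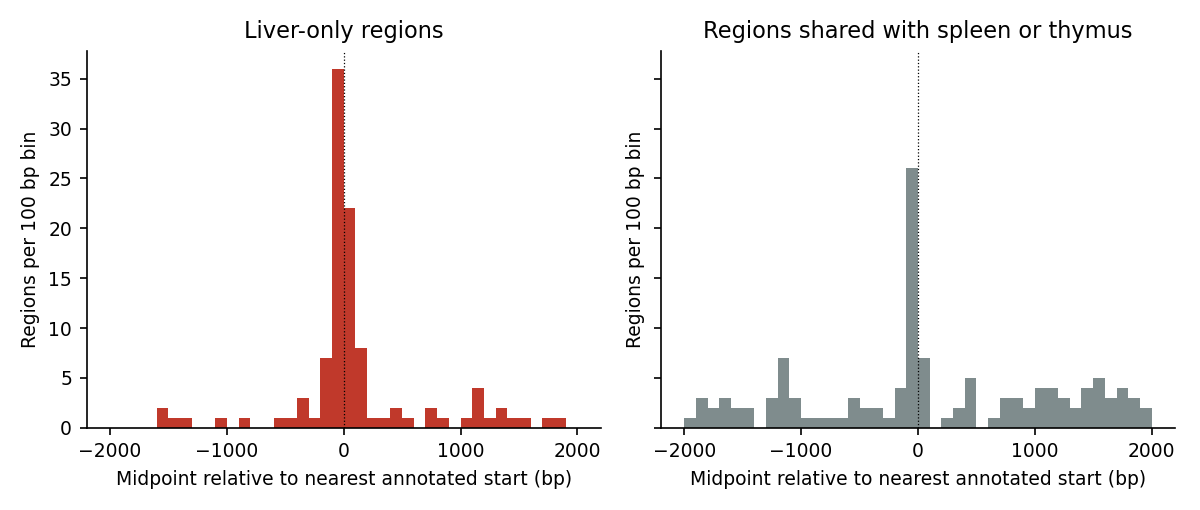
Position of region midpoints relative to the nearest annotated start, in bins of 100 bp, for liver-only regions (left) and for regions shared with spleen or thymus (right), all more than 1 kb from gene ends. Negative values are upstream; 58 liver-only midpoints lie within 100 bp of a start.

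The start windows of these regions were rich in G, C and CpG. The windows run from 250 bases before to 50 bases after a start. Their median G+C content was 66.3% (quartiles 59.7 and 70.9), against 51.7% (45.3 and 59.3) in all 4728 windows whose start lay more than 1 kb from every gene end. The median ratio of observed to expected CpG was 0.881 against 0.309. Windows of the 50 shared start-site regions were alike on both measures, at 63.0% and 0.882, as were those of liver-only regions at gene ends, at 66.0% and 0.900. High G+C and CpG was therefore common to the start windows of all 3 classes and not particular to the liver-only regions.

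GC boxes and the NRF1, ETS and E-box motifs were more frequent in the 82 windows than over all starts away from gene ends, and the p53 motif was not. The more frequent motifs all contain CG, and the windows compared differed in G+C and CpG content, as given above. Whether the motif shares differ beyond base composition was not tested. Both strands were searched, and none of the motifs spelled here contains another. The GC box (GGGCGG), which Sp1-type factors bind, was present in 67.1% of the windows against 29.5% of all starts away from gene ends. The NRF1 core, bound by a regulator of mitochondrial genes, was present in 8.54% against 0.444%. The ETS core (CCGGAAG) was present in 13.4% against 5.46%, and the E-box (CACGTG), the site of clock and MYC factors, in 13.4% against 5.73%. The CCAAT box (CCAAT) was present in 29.3% against 35.7%. The TATA box (TATAAA) was found in 1.22% against 12.8%. The cAMP response element (TGACGTCA) was found in 2.44% against 1.16%, and the AP-1 site (TGACTCA) in 3.66% against 5.46%. An exact p53 half-site was found in 6 of 82 windows (7.32%) against 8.97%, and a pair of half-sites up to 13 bases apart with at most 2 mismatches in 6 of 82 (7.32%) against 11.9%. The 6 windows with an exact half-site were those of Tasor2, Wdr20, Kdm4c, Cdyl, Esyt2 and Rbpj. The GC box was also present in 62.0% of the windows of shared start-site regions and in 79.3% of those of liver-only regions at gene ends, and the NRF1 core in 2.00% and 10.3%. The ETS core was present in 12% and 24% of these windows and the E-box in 8% and 10%. An exact p53 half-site was present in 8% and 5.4% of them, and a pair with at most 2 mismatches in 8% and 5.5%. A low share of p53 matches was therefore not particular to the liver-only regions away from gene ends. Among these classes of start windows, the GC box, the ETS core and the NRF1 core thus had their highest share in liver-only regions at gene ends. These are letter matches in windows of 300 bases, and the sequence of the regions outside start windows was not analysed here. Some windows, such as those of Zfp423, Pfn1 and Tef, shared no base with their region. A match in a window therefore need not lie in the region.

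**Figure D3:**
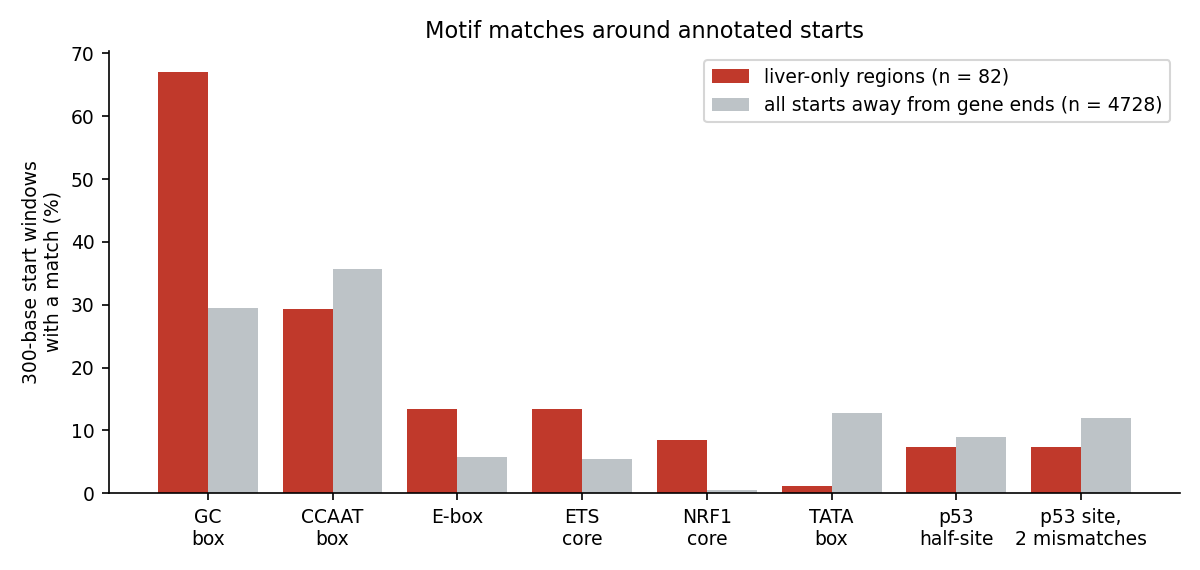
Percentage of 300-base start windows that hold each motif on either strand, for the 82 start-site regions and for all 4728 annotated starts more than 1 kb from gene ends. GC box, ETS core, E-box and NRF1 core matches were more frequent in the start windows of the liver-only regions than over all starts, while TATA box, CCAAT box and p53 matches were not. Some windows share no base with their region.

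Scores, the authors' own value per region on a scale that is not given, were used only as percentiles within the liver list. The 240 regions spanned percentiles from 0.0129 to 96.9, with a median of 43.9 (quartiles 11.8 and 71.0), against 48.9 (23.2 and 76.5) for the 1788 shared regions away from gene ends. None of them reached the range of the strongest shared regions, which went up to 99.97. The median was 43.9 at starts, 45.4 inside coding genes and 38.3 outside them. Regions in the lowest 10% of liver scores were 54 of 240 (22.5%, 17.4 to 28.3), against 192 of 1788 shared regions (10.7%, 9.34 to 12.3). In regions shared with 1 lymphoid organ the share was 13.4% (9.22 to 18.6). Without the run on chromosome 1 described below, the liver-only count was 44 of 230 (19.1%). Widths were also smaller: 94 regions (39.2%) had the minimum of 50 bp, against 17.8% of the shared regions and 40.6% of those shared with 1 organ. The rule selected on list membership, which requires a score above the authors' threshold, so these values describe the regions and support nothing further.

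**Figure D4:**
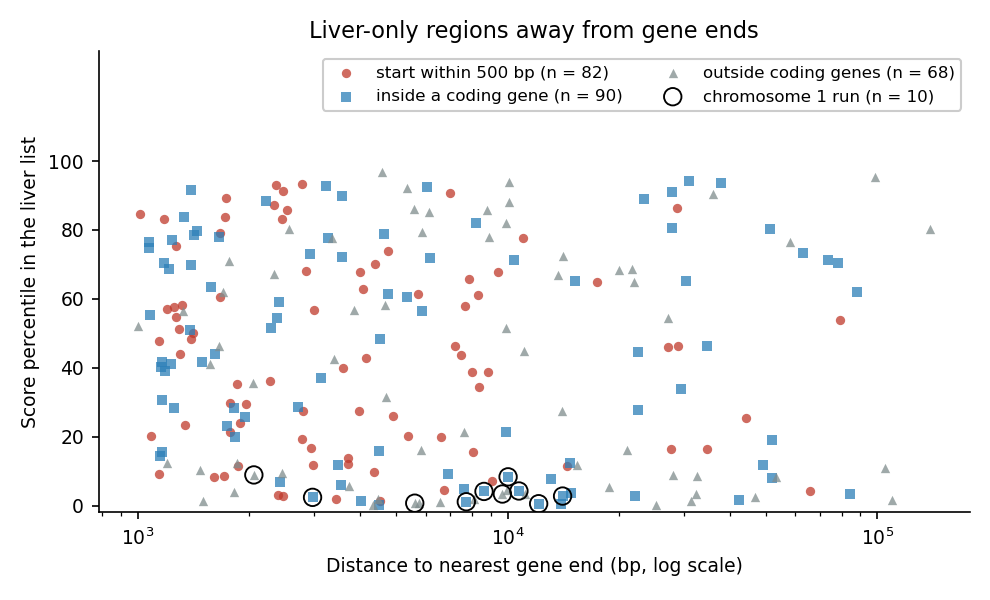
Score percentile in the liver list against the distance of the midpoint from the nearest gene end (log axis) for the 240 liver-only regions, with symbols for those at starts, inside coding genes and outside them. Circles mark the 10 regions of the run on chromosome 1, at percentiles up to 8.88.

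The highest scores lay outside genes, in gene bodies and at internal starts alike. The top region, 550 bp on chromosome 12 (27941201 to 27941750; percentile 96.9), lay 4567 bp from the noncoding gene Gm45941 and 496320 bp from the nearest coding gene, Dcdc2c. The next (chromosome 1, 35663001 to 35663250; 95.5) lay 405275 bp from Hs6st1, a heparan sulfate sulfotransferase gene. Unc5cl and Vwa8 each held a region in the gene body, 30998 and 37717 bp from a gene end (chromosome 17, 48485001 to 48485250, percentile 94.2; chromosome 14, 78886701 to 78886850, percentile 93.5). Slc38a2, which encodes a stress-responsive amino acid transporter, had a region of 450 bp 10097 bp upstream (chromosome 15, 96709601 to 96710050; 93.8). Cyclin E1 gene Ccne1 lay 12909 bp from a region of 550 bp inside the noncoding gene Gm30771 (chromosome 7, 38084801 to 38085350; 88.2).

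Of the 25 regions with the highest scores, 8 were start-site regions, 9 lay inside coding genes and 8 outside them. The start-site regions were those of Zfp423 (percentile 93.3), Ccdc12 (93.1), the splicing factor gene Hnrnph1 (91.2), Zfp672 (90.7), Nbeal1 (89.2), D2hgdh (87.3), the growth factor gene Egf (86.4) and the mRNA cap methyltransferase gene Cmtr2 (85.8). Those inside coding genes included the lipase gene Lipm (92.7), the ubiquitin ligase gene Trim11 (92.3), the translesion DNA polymerase gene Rev1 (91.5), Cyrib (91.0), the semaphorin receptor gene Plxna4 (88.9) and the cadherin gene Fat1 (88.3). Others outside coding genes lay nearest to Nphp4 (332141 bp; percentile 90.5), Agmat (11600 bp; 86.1) and Ints10 (16665 bp; 85.8). The region in Mid1 (89.8) lies on X near a stretch that has a copy on Y, where Mid1-ps1 contained another of the 240 regions, so reads of this pair may have been split or misplaced.

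Known p53 genes were linked to 4 of the 240 regions. A gene was linked when it contained the midpoint of a region or, for regions outside coding genes, was the nearest coding gene. By this measure 224 of 21887 coding genes (1.02%) were linked to a liver-only region away from gene ends. Of 86 genes in 5 lists of p53 regulators and targets, 4 were linked (4.65%): Trp53, Btg2, Mcl1 and Fancc. Linked to any liver region were 50 of the 86 (58.1%), against 15.3% of all coding genes. A liver region shared with spleen or thymus and away from gene ends was linked to 22 of the 86. The share of all coding genes with such a link was not calculated, so this count has no background.

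Trp53, the gene of p53 itself, contained a region 4527 bp from its nearest end (chromosome 11, 69584801 to 69584950; percentile 48.4). A second region, in all 3 lists, lay 4450 bp away from it at the shared end of Trp53 and Wrap53 (69580201 to 69580350; 24.8). The antiproliferative gene Btg2 lay 13970 bp from a region inside the noncoding gene Gm32039 (chromosome 1, 134093101 to 134093150; 35.6). The region of Mcl1, which encodes an inhibitor of apoptosis, lay 4 bp from an internal start (chromosome 3, 95658701 to 95658750; 29.9). That of Fancc lay 20 bp from a start 65547 bp inside the gene (chromosome 13, 63431601 to 63431850; 4.15). No gene of the list of metabolism and redox targets was linked, of 25.

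The circadian and AP-1 lists had 3 linked genes each, and no other single list had more than 2. When a coding gene had to lie within 5 kb of the region, each had 2, as did the list of p53 feedback and regulation. Of 20 circadian genes 3 were linked (15.0%): Dbp, Tef and Hlf, which together encode the PAR bZIP factors, transcription factors that carry clock rhythms to metabolic genes in liver. Dbp contained a region of 50 bp (chromosome 7, 45707701 to 45707750; percentile 23.1), 550 bp from a stronger region in the liver and spleen lists (86.1). Tef had one 111 bp from an internal start (chromosome 15, 81811501 to 81811550, percentile 38.8). The window of that start held an E-box but did not reach the region. The region linked to Hlf lay 27208 bp outside the gene (chromosome 11, 90418101 to 90418150, percentile 54.5). Of 22 immediate early genes 3 were linked (13.6%): Fos, Jun and Jund, subunits of AP-1. Fos was nearest to a pair of regions, 1565 and 18565 bp outside it (chromosome 12, 85472301 to 85472350 and 85455301 to 85455350; percentiles 41.0 and 4.04). The nearer of these lay 2650 bp from a region of all 3 lists at 93.8. Jund contained a region of 450 bp (chromosome 8, 70698701 to 70699150; 39.2). Jun was linked only as the nearest coding gene, at 109203 bp, to a region inside the noncoding gene Junos (chromosome 4, 95161301 to 95161550; 21.3). Linked to any liver region were 10 circadian (50%) and 7 immediate early genes (31.8%), against 15.3% of all coding genes. Such links were therefore frequent in the whole liver list too.

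Hepatic gene lists held 0 to 2 linked genes each, beside 1.02% of all coding genes, a share that comes to fewer than 1 gene in a list of this size. Of 32 hepatocyte identity genes 0 were linked to the 240 regions, and 0 to any liver region, against 15.3% of all coding genes for the latter. Nr3c1, the glucocorticoid receptor gene, was the linked gene among 32 hepatic transcription factors (3.13%). It contained a pair of regions of 150 bp within a span of 1150 bp (chromosome 18, 39488901 to 39489050 and 39489901 to 39490050; percentiles 65.2 and 33.9). Of 36 genes of lipid and bile acid metabolism, Insig2 and Scd1 were linked (5.56%). Insig2, a brake on sterol synthesis, had a region 99 bp from an internal start (chromosome 1, 121327801 to 121328050; 74.0). Scd1, the main hepatic fatty acid desaturase, had one 5875 bp outside the gene (chromosome 19, 44388501 to 44388650; 79.5). Genes of xenobiotic metabolism (26), of glucose and insulin signalling (33) and of the acute phase and stress (31) had 0 links. When a coding gene within 5 kb was counted instead, the acute phase list had 1. Markers of the other cells of liver and blood also had 0, with 19 genes of Kupffer and myeloid cells, 16 of stellate and stromal cells, 16 of endothelium, 12 of biliary cells and 29 of lymphocytes. Among 25 neuronal control genes, Syt1 contained a region (chromosome 10, 108710501 to 108710650; 71.2). Across all 19 lists, 14 of 435 genes were linked (3.22%).

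The regions lay inside coding genes at a higher share than regions of all 3 lists, and at a share whose interval overlapped that of regions shared with 1 lymphoid organ. The 9 regions without a start table lay on chromosome 18. Coding genes contained 172 of the 240 midpoints (71.7%, 65.5 to 77.3), against 139 of 224 (62.1%, 55.4 to 68.4) of those shared with 1 lymphoid organ, 656 of 1564 (41.9%, 39.5 to 44.4) of those in all 3 lists and 47.7% of all liver regions away from gene ends. Without start-site regions, and among regions with a start table, the liver-only share was 82 of 149 (55.0%, 46.7 to 63.2). The other classes were not counted in this way, so this share cannot be set against theirs. The median distance from the nearest gene end was 4506 bp, against 7500 bp in regions shared with 1 lymphoid organ and 10622 bp in those of all 3 lists. Outside coding genes, the nearest coding gene lay at a median of 21704 bp and at most 789295 bp (Ddx18, for a region on chromosome 1 from 122357201 to 122357350; percentile 10.8). Gm44812, at 432964 bp, was the nearest coding gene to a further remote region (chromosome 7, 71017901 to 71017950; 72.6).

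The nearest regions on each side of the 1 kb limit are given as a description. Just inside it were regions near Malat1, in Ireb2 and in Atp5d, 1003, 1017 and 1070 bp from the nearest gene end, at percentiles of 52.1, 84.7 and 74.7. The region of Ireb2, the gene of an iron regulatory protein, lay 80 bp from an internal start. Just outside it were regions in Hnrnpa1 (982 bp; percentile 47.1), near Mex3b (971 bp; 81.3) and in Ccna2 (963 bp; 50.8).

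A dense run of regions lay on chromosome 1 between 88234701 and 88304850. It held 11 liver regions in 70150 bp, of which 10 belonged to the 240 and the other lay at an end of Hjurp, a centromere chaperone gene (88275801 to 88278650, 2850 bp; percentile 39.7). Mroh2a contained 6 of the 10, Hjurp 1, and the others lay between Hjurp and Trpm8, a cold-sensing channel gene. None of the 11 was in the spleen or thymus list. Elsewhere at most 3 of the 240 regions lay within 100 kb of each other. The 10 regions away from gene ends were wide, from 50 to 3250 bp with a median of 750 bp, and ranked low, at percentiles of 0.529 to 8.88. They made up 20.04% of the summed width of all 240. Of the 13 regions over 500 bp in the whole set, 6 belonged to this run and the median percentile of the 13 was 4.09, while the 113 shared regions over 500 bp had a median of 94.9. The run lay 14699 bp beyond the end of the Ugt1a genes, a family of drug-conjugating enzymes. What sets this run apart was not tested.

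**Figure D5:**
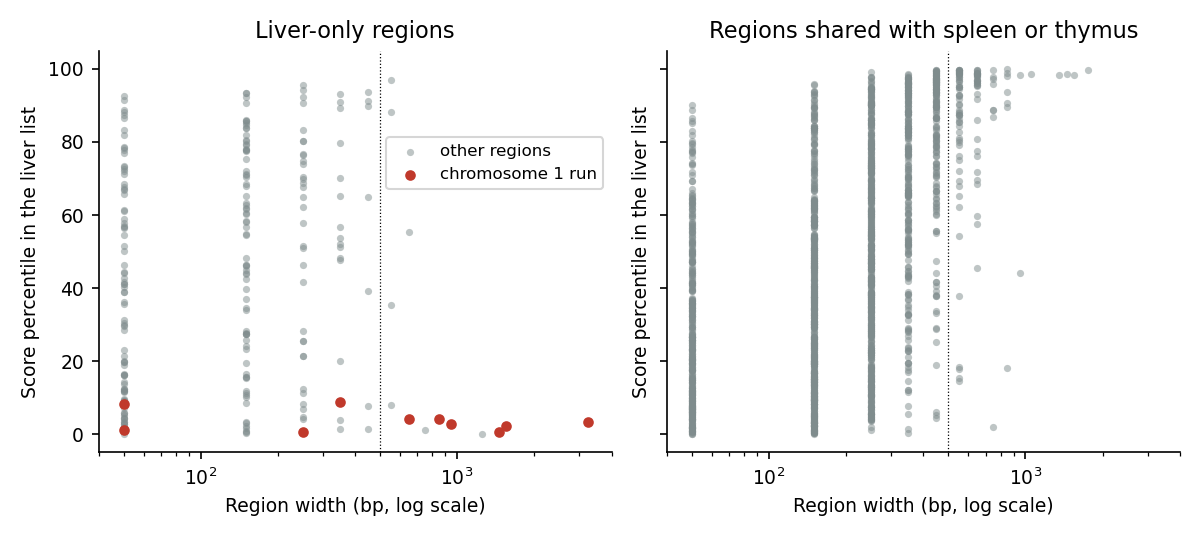
Score percentile in the liver list against region width (log axis) for the liver-only regions (left) and the regions shared with spleen or thymus (right), all away from gene ends. The dotted line marks 500 bp; the 10 plotted regions of the run on chromosome 1 lie at percentiles up to 8.88.

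Some regions outside the run also lay close to another region. Another region of any list lay within 10 kb of 46 of the 240 (19.2%, 14.4 to 24.7), against 216 of 1788 shared regions (12.1%, 10.6 to 13.7) and 12.9% of all liver regions away from gene ends. Without the run the count was 36 of 230 (15.7%). Among regions shared with 1 lymphoid organ it was 30 of 224 (13.4%, 9.22 to 18.6). Groups of at least 2 of the 240 within 10 kb numbered 5 and held 14 regions, in or near Mroh2a, Trpm8, Nr3c1, Zfp978 and Csk, the last a kinase gene that restrains Src. Arid1b, a chromatin remodeller subunit gene, Asap1 and the neuregulin gene Nrg2 each contained a pair of more distant regions. A shared region lay within 10 kb of 20 of the 240 (8.33%), against 166 of 1788 (9.28%) for the shared regions themselves. The closest was in Cd302, 350 bp from a region of all 3 lists at a percentile of 79.3. Next, each at 450 bp, were those in Kansl1 and 1810010H24Rik, beside regions of all 3 lists at 93.8 and 16.4, and that in Cpeb2, beside a region of the liver and thymus lists at 39.4. Zfp978 belongs to a family of similar zinc finger genes on chromosome 4, and 3 of the 240 regions lay on Y, so reads there may have been shared between copies.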

How the data were processed

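Region scores were deposited by the authors as 1 list per organ, in headerless files whose scale is not described. The submitters' processing notes name mm10. How reads were aligned, how regions were called and how input or IgG entered is not stated there or in the labels. Starts were shifted to 1-based positions. Midpoints were set against the ends of 49943 RefSeq genes (GRCm38.p6, 21887 coding) and against 32851 annotated starts of 27025 genes, without exons or a genome sequence, so no region was assigned to an exon, intron or UTR. A midpoint within 500 bp of a start counted as a start-site region, a choice made after the data were seen. Percentiles are ranks within the liver list with ties averaged. No test was run, since no value per library exists. The functions were tested on simulated regions (Python 3.11.15, pandas 2.3.3, scipy 1.17.1). Named were the 25 highest scores, genes of 19 lists, regions at the 1 kb limit, groups within 10 kb and the 5 farthest from coding genes; others were named after their values were seen. Of the 25, 1 is not reported here. The regions and gene lists were chosen with earlier results of these data known. Of 435 list genes all matched, 1 through a synonym.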

Additional observations from a re-analysis of the deposited data

How the results depend on the processing

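Of 28 alternative settings, 22 stayed within 1.5 times a count or within the 95% interval of a share or median. The number of regions fell from 240 to 111 at 5 kb from gene ends and to 108 in the upper 50% of liver regions by score. The share inside a gene of any kind, 76.7%, became 69.0% when ends and hosts were limited to coding genes, and the median distance from a gene end, 4506 bp, became 6564 bp with the ends of coding genes. Regions near another region were 99 when near meant 50 kb. The share at starts fell to 25.2% at 5 kb from gene ends, where the shared regions gave 1.48%; this and other settings of the share at starts, and those without the run on chromosome 1, were chosen after the data were seen. With the other settings the share at starts was 31.6% to 38.1%. The planned search for p53 motifs over whole regions was not run, because no genome sequence was used. No library could be left out, since each list is a single value set per organ, and read depth is unknown. No paired analysis was possible because the lists hold no columns per replicate.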

Other observations

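Of the 240 regions 3 lay on Y, where the liver list had 5 in all and 0 shared regions away from gene ends, and 26 lay on chromosome 1, including the 10 of the run.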
